A study of Mus musculus with 52 samples.

Results

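Rad21 ChIP-seq peaks of somatic SmcHD1 knockout (somKO) mouse embryonic fibroblasts (MEFs) were compared with those of wild-type (wt) MEFs. The members were the peaks of 2 deposited lists, 67655 in wt and 89974 in somKO, together 157629 of the 360593 peaks in the 6 lists used here. A somKO peak that overlapped no wt peak by at least 1 bp was called gained, and a wt peak that overlapped no somKO peak was called lost. All other peaks were called retained. There were 34036 gained and 4885 lost peaks.

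All cells were clonal female MEFs from an interspecific cross of FVB and castaneus mice. The wt list came from 2 libraries of 1 clone, Wt2A1. The somKO list came from 4 libraries, 2 each of the CRISPR knockout clones A3-3 and D4, in which SmcHD1 was removed after X inactivation had been established. Both knockout clones are triploid, as a supplementary figure legend of the study states. Its methods give their parent as a wild-type line other than Wt2A1, which carried 2 FVB alleles and 1 castaneus allele of SmcHD1. Genotype, clone and chromosome number therefore cannot be told apart in these lists. No allele or agent other than the SmcHD1 mutations sets somKO apart in the labels. For comparison, lists of CTCF in wt (3 libraries, 1 clone) and somKO (4 libraries, 2 clones), of SmcHD1 in wt (3 libraries, 1 clone) and of Rad21 in germline SmcHD1 mutant MEFs (mut, 2 libraries of 1 clone) were used, out of 52 libraries in the series. None of these libraries is SmcHD1 ChIP-seq of somKO, so the lists hold no check of the knockout. The study itself examined both knockout clones by sequencing, immunofluorescence and Western blot.

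Rad21 is the kleisin subunit that closes the cohesin ring. Cohesin extrudes loops of chromatin, and CTCF bound to its motif stalls the ring, so that much of the Rad21 on mammalian chromosomes lies at CTCF sites. A further part lies at active promoters and enhancers, where cohesin is loaded or passes. SmcHD1 is a non-canonical SMC protein that coats the inactive X chromosome and is also known for repression of the clustered protocadherin genes and of imprinted genes.

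Sequences of some of the strongest gained and lost peaks are given first, to show which of them carry the DNA motif of CTCF. Among the 10 gained peaks with the highest score, 4 held the core of the CTCF motif (CCA, any 2 bases, AG, any 2 bases, GGC). Among the 10 lost peaks with the highest score, 1 did. The whole peak was searched on either strand, and the counts were not matched for width. These gained peaks were 523 to 2661 bp wide and the lost ones 325 to 962 bp. Over all peaks searched whole, the core was in 19.1% of gained and 11.5% of lost peaks. Of the gained matches, 3 are shown beside the lost one, from GRCm38 (mm10) on the strand of the motif, 5′ to 3′, with 15 bases on each side and the 12 bases of the core in capitals. The first 3 lie in gained peaks in an intron of Ptprn2 (chr12:117036271-117036312), near Cyp2b19 (chr7:26778821-26778862) and in an intron of Grin2b (chr6:136130687-136130728). The fourth lies in a lost peak in an intron of Runx3 (chr4:135150606-135150647). The 3 gained sites and the lost one were read on the minus strand. Here and below, a peak called near a gene had that gene's transcript start as the nearest one, at any distance.
Ptprn2, gained: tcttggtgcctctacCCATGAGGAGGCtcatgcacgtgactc
Cyp2b19, gained: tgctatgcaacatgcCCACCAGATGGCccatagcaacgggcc
Grin2b, gained: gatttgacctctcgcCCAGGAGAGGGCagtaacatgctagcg
Runx3, lost: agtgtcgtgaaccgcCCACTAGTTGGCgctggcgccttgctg

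The Grin2b peak is also shown as the 300 bases around its midpoint (chr6:136130523-136130822, plus strand), since it carried matches to 3 of the 4 motifs searched. Capitals mark a TEAD match (GGAATG), the CTCF core and 2 AP-1 matches (TGANTCA). The lost peak at the promoter of Afap1l2 (chr19:57008212-57008511, plus strand) held none of the 4 motifs in its 300 bases. It is shown as an example of a lost peak at a CpG-rich promoter, with each of its 33 CG dinucleotides in capitals.
Grin2b, gained: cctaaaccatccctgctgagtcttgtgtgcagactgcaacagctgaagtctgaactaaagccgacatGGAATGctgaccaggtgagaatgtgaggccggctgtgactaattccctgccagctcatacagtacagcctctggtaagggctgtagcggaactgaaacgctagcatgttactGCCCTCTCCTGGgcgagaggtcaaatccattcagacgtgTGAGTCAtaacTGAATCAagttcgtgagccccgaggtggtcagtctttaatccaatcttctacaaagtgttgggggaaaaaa
Afap1l2, lost: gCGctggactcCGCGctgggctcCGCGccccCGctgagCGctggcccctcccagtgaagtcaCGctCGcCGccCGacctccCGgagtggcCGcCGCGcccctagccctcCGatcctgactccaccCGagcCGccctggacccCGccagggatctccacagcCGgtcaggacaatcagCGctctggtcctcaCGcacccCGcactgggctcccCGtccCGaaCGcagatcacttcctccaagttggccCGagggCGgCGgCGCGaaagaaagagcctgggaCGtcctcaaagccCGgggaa

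To determine how much of the Rad21 landscape differed between the genotypes, gained and lost peaks were counted. Gained peaks made up 37.8% of the somKO list and lost peaks 7.22% of the wt list. The somKO list merged more libraries than the wt list and was longer, so both lists were also cut to 67655 peaks by score, the value by which the authors' peak caller ranked them. At equal length 15612 somKO peaks (23.1%) were gained and 8381 wt peaks (12.4%) were lost. In the full lists the same count for CTCF gave 22.6% of somKO peaks gained and 7.63% of wt peaks lost. Those values stand beside the full-list 37.8% and 7.22% of Rad21, and CTCF lists were not cut to equal length. Each group had 1 list of merged libraries, so no value has a replicate error and no test was made. The intervals given are 95% Wilson intervals. For a count of 0 the limit given is 3 counts of the total. Both cover counting error only. The depth of the libraries is unknown.

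Gained and lost peaks were narrow and ranked low in their lists. The median width was 350 bp for gained against 1095 bp for retained somKO peaks, and 300 bp for lost against 628 bp for retained wt peaks. The score percentile, which is the position of a score among all scores of its list with tied peaks placed at the middle of their tie, had a median of 22.4 in gained and 68.6 in retained somKO peaks. It was 12.4 in lost and 53.8 in retained wt peaks. In the lowest decile of the somKO list 87.1% of peaks were gained (86.4 to 87.8), in the sixth decile 24.8% (23.9 to 25.7) and in the ninth 0.366% (0.261 to 0.514). None of the 8992 peaks in the highest decile was gained, which allows a share of up to 0.0334% by the limit of 3 counts. In the wt list the lost share fell from 29.6% (28.6 to 30.8) in the lowest decile to none of 6766 in the highest, which by the same limit allows up to 0.0443%. By the 1 bp rule the peaks of the highest decile of both lists were thus shared, and the calls lay in weak and intermediate sites. Peak width rose with score, from a median of 311 bp in the lowest decile to 2624 bp in the highest in somKO. In wt it rose from 316 to 1869 bp. A wider peak meets a peak of the other list more easily, and the part of width in this fall was not tested. With 50% reciprocal overlap the gained share was 55.9% and the lost share 41.4%. The median distance from a gained peak to the nearest wt peak was 3.37 kb, and 14.7% were within 500 bp. The median distance from a lost peak to the nearest somKO peak was 2.10 kb, and 28.4% were within 500 bp.

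**Figure D1:**
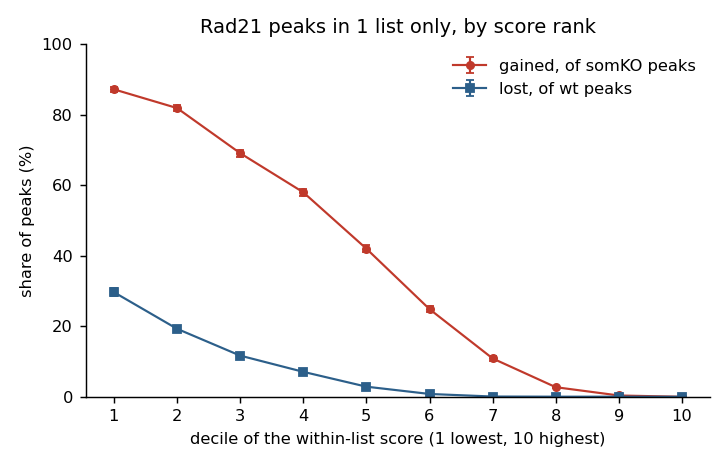
Share of Rad21 peaks found in 1 list only (y axis, percent) by decile of the score within the list (x axis, 1 lowest), for gained peaks among somKO peaks (circles) and lost peaks among wt peaks (squares). Bars are 95% Wilson intervals. The gained share falls from 87.1% to 0 and the lost share from 29.6% to 0.

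To ask whether the differences lay at CTCF sites, Rad21 peaks were overlapped with the CTCF peaks of the same cells, a readout that was not used to call gained or lost peaks. Of gained peaks 30.2% (29.7 to 30.7) lay at a somKO CTCF peak, against 69.9% (69.5 to 70.3) of retained somKO peaks. Of lost peaks 15.6% (14.6 to 16.6) lay at a wt CTCF peak, against 62.2% (61.8 to 62.6) of retained wt peaks. CTCF overlap rises with Rad21 score, so peaks of like score were compared next. Among somKO peaks of the fifth decile, 60.0% of gained and 36.4% of retained peaks lay at CTCF. The values were 80.0% and 54.3% in the sixth decile and 92.7% and 74.4% in the seventh. In the lowest decile the order was the reverse, with 9.52% of gained and 13.1% of retained peaks. Lost peaks showed the opposite pattern, with 9.14% at CTCF against 15.4% of retained peaks in the lowest decile and 28.7% against 36.7% in the fourth. In the fifth decile the shares were 47.7% (40.7 to 54.7) and 51.5%, and these intervals overlap. At like score, gained peaks from the third to the eighth decile were therefore at CTCF more often than retained peaks, and lost peaks of the lowest 4 deciles less often. At like width the order for gained peaks was the other way round. Among somKO peaks of 300 to 500 bp, 31.9% (31.1 to 32.7) of gained and 62.9% (61.8 to 63.9) of retained peaks lay at CTCF, and among those of 1000 bp or more 25.9% and 77.6%. Score and width were not matched together.

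Most of the CTCF under gained peaks was already present in wt cells. At equal length, 35.7% of gained peaks lay at a CTCF peak of both genotypes, 15.0% at one of somKO only, 1.70% at one of wt only and 47.5% at none. Of retained peaks 69.6% lay at CTCF of both genotypes and 4.45% at CTCF of somKO only. The 118 gained peaks above the 75th percentile were all at a somKO CTCF peak, and 97 of them (82.2%) at a wt CTCF peak too. Of the 18989 gained peaks below the 25th percentile, 85.4% were at no CTCF peak. Seen from the CTCF lists, 50037 CTCF sites occurred once in each genotype. Rad21 was present in both genotypes at 70.1% of them, in somKO only at 12.98%, in wt only at 0.997% and in neither at 15.9%.

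**Figure D2:**
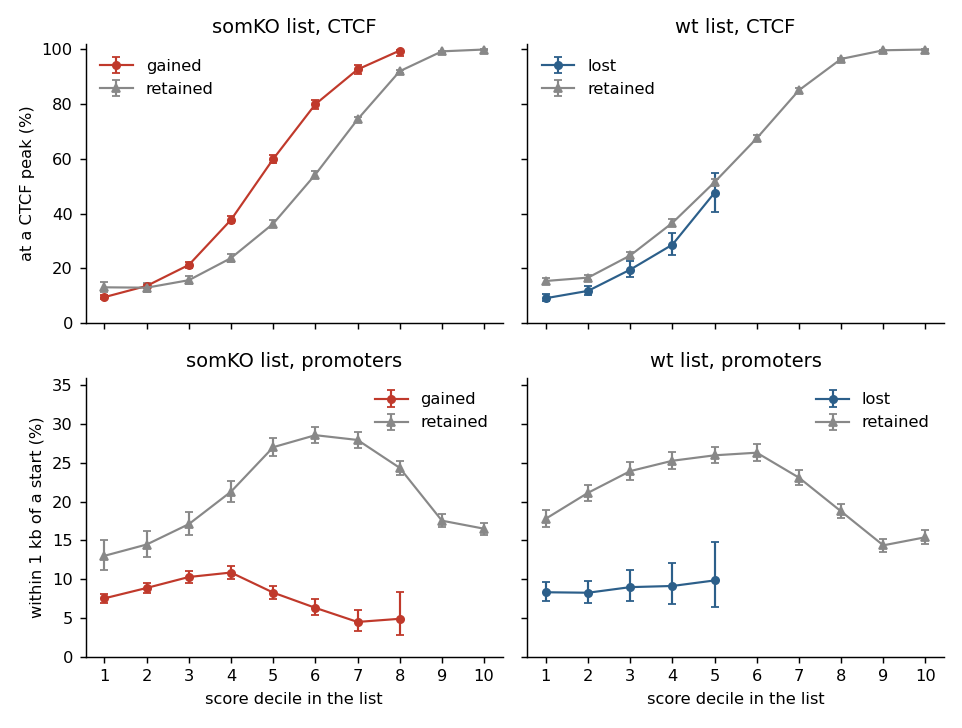
Share of Rad21 peaks at a CTCF peak of the same genotype (top, percent) and within 1 kb of a transcript start (bottom, percent) by score decile, for gained or lost peaks (circles) and retained peaks of the same list (triangles). Bars are 95% Wilson intervals, and deciles with under 100 peaks are left out. Gained peaks lie above retained ones for CTCF from decile 3 to 8, and gained and lost peaks lie below retained ones for promoters in every decile shown.

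Promoters differed from the rest of the genome in both directions. Of gained peaks 8.73% (8.43 to 9.03) lay within 1 kb of a transcript start, against 22.2% (21.8 to 22.5) of retained peaks. For lost peaks the share was 8.68% (7.92 to 9.50), against 21.2% (20.9 to 21.5). The same order held at like score, with 6.31% of gained and 28.6% of retained peaks in the sixth decile and 8.32% of lost and 17.8% of retained peaks in the lowest decile. At like width the difference was smaller. Among somKO peaks of 300 to 500 bp, 7.82% (7.37 to 8.28) of gained and 9.03% (8.43 to 9.66) of retained peaks were at promoters, and among those of 1000 bp or more 20.9% and 30.4%. The gained share was 8.39% of promoter peaks with CTCF and 64.3% of distal peaks without CTCF. Between these lay distal peaks with CTCF (23.3%) and promoter peaks without (31.8%). The lost share was 1.06% of promoter peaks with CTCF and 18.2% of distal peaks without.

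Motif matches in the 300 bases around the peak midpoint were compared with those in 32851 RefSeq promoters of the same length (GRCm38.p6). Both strands were searched. The CTCF core was found in 16.7% of gained and 16.7% of retained somKO peaks in the full lists. At equal length it was in 27.7% of gained and 17.5% of retained peaks, and in 7.33% (6.96 to 7.71) of gained peaks below that score. With peaks called shared only at 50% reciprocal overlap the order was the reverse, with 14.3% of gained and 19.7% of retained peaks. It was in 10.7% (9.91 to 11.6) of lost peaks, in 18.6% of retained wt peaks and in 2.43% of promoters. The AP-1 motif TGANTCA, bound by the Fos and Jun factors of growth-stimulated cells, was in 22.6% (21.4 to 23.8) of lost peaks and 15.1% of retained wt peaks, and in 7.81% of promoters. In gained peaks it was in 19.7% (19.3 to 20.1), against 14.8% of retained somKO peaks. Among peaks without CTCF the order depended on the lists. In the full lists the motif was in 23.6% (23.1 to 24.2) of gained and 26.0% (25.4 to 26.7) of retained somKO peaks, and in 24.8% of lost and 23.9% of retained wt peaks, whose intervals overlap. At equal length it was in 27.9% of gained against 25.7% of retained peaks and in 27.1% of lost against 22.96% of retained peaks. The RUNX motif TGTGGTT was in 19.04% of gained peaks at equal length and 10.9% of retained ones, against 5.27% of promoters. The difference was larger at CTCF peaks (24.0% of gained and 11.5% of retained) than without CTCF (13.95% and 9.16%). Binding of RUNX factors was not tested. The TEAD motif GGAATG was in 16.8% of gained, 18.1% of lost and 14.7% of promoter windows. The reference assembly marks repeats, and 28.1% of gained windows at equal length were more than 50% repeat, against 14.3% of retained ones. These shares moved with width. Among peaks of 300 to 500 bp the CTCF core was in 17.6% of gained and 33.8% of retained windows, and 20.3% and 29.4% of windows were mostly repeat.

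**Figure D3:**
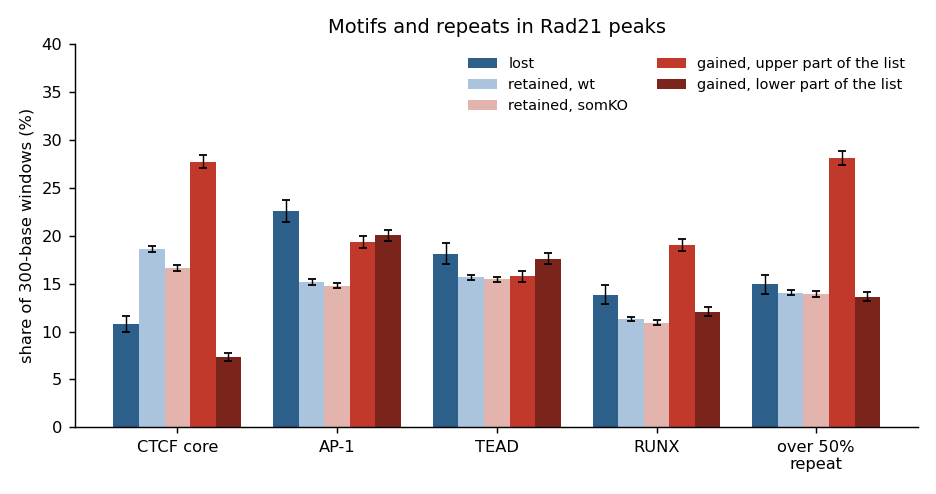
Share of 300-base windows around Rad21 peak midpoints (y axis, percent) that hold each motif on either strand, or are more than 50% repeat, in lost peaks, retained peaks of each list, and gained peaks above (upper part) and below (lower part) the equal-length score. Bars start at 0 and error bars are 95% Wilson intervals. The CTCF core is in 27.7% of the upper and 7.33% of the lower gained peaks.

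The strongest gained peak lay at the promoter of Pcdha12 on chromosome 18 (chr18:37019562-37021589), with a width of 2028 bp and a percentile of 89.1. Pcdha12 is a clustered protocadherin, one of a family of neuronal cell-surface proteins expressed in combinations chosen by promoter. Of the 10 gained peaks with the highest score, another was at the promoter of Pcdhb7 (85.4). The others were near the defensin gene Defb1 on chromosome 8 (chr8:21755259-21757349, 88.5, 198 kb from the nearest wt Rad21 peak), in an intron of Ptprn2, a protein of secretory vesicles (chr12:117034980-117036415, 85.9), and near Gm21847 on chromosome 5 (chr5:15497936-15500596, 85.6). The remaining 5 were near Cyp2b19 (chr7:26777908-26779169, 84.9), near 5730507C01Rik (chr12:18349429-18349991, 84.9), near A2m, which encodes a plasma protease inhibitor (chr6:121560553-121561398, 84.9), in an intron of Grin2b, an NMDA receptor subunit (chr6:136130412-136130934, 84.8), and in an intron of the cytochrome P450 gene Cyp2f2 (chr7:27127989-27128631, 84.5). The starts of 5730507C01Rik and A2m were 165 and 75.3 kb from their peaks. All 10 peaks lay at a CTCF peak in wt and in somKO and overlapped a Rad21 peak of the mut list. The mut comparison uses the same wt list. The share of all gained peaks that overlap a mut peak is not given here. Most of the 10 lost peaks with the highest score also overlapped a mut peak, namely those of Gm21738, Afap1l2, Tmem121, Gpr180, Runx3, Dkk2 and B930095G15Rik. Those at Gm7682, Gm34907 and Hs6st3 did not. The peaks near Gm21847 and in Grin2b also overlapped an SmcHD1 peak of wt cells.

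Gained promoter peaks with the highest scores were those of Pcdha12, Pcdhb7, Pcdha4 (82.9), the noncoding Gm45764 on chromosome 8 (79.9) and Pcdhb4 (79.6). The clustered protocadherin genes were therefore described gene by gene. Of 56 genes, 23 had a Rad21 promoter peak in both lists, 17 in somKO only (30.4%), 1 in wt only (Pcdhgc5, percentile 7.44) and 15 in neither. For all 21911 coding genes the corresponding shares were 6.52% in somKO only and 0.849% in wt only. At equal length 16 of the 17 kept the somKO-only call. In the alpha cluster 8 of 13 genes had a peak in somKO only (Pcdha2, Pcdha3, Pcdha4, Pcdha5, Pcdha6, Pcdha8, Pcdha11 and Pcdha12) and 1 in both. In the beta cluster 4 of 22 had one in somKO only and 17 in both, and in the gamma cluster 5 of 21 and 5. The percentiles of the 17 peaks ran from 19.7 to 89.1 with a median of 71.5. A CTCF peak was at 14 of the 17 promoters in wt and at 16 in somKO. Where both lists had a promoter peak, the median percentile difference, somKO minus wt, was 13.9, against 9.41 over all coding genes. Pcdhga4 went the other way, from 62.2 in wt to 27.1 in somKO. Across the clusters (chr18:36930184-37841873) there were 36 Rad21 peaks in wt and 64 in somKO, of which 32 were gained and 1 of the wt peaks was lost. In the full lists the gained share was 37.8% over all somKO peaks and 43.3% on chromosome 18. At equal length 19 of 45 somKO peaks in the bodies of these genes were gained (42.2%). The equal-length share was 22.2% in the bodies of all coding genes and 27.7% on chromosome 18. CTCF peaks numbered 57 and 70. The SmcHD1 list of wt cells had 1 peak there. The study reports SmcHD1 enrichment over this locus from binned profiles, a measure that a count of narrow peaks does not replace. The clones differ between the groups, and clone and genotype cannot be told apart here.

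**Figure D4:**
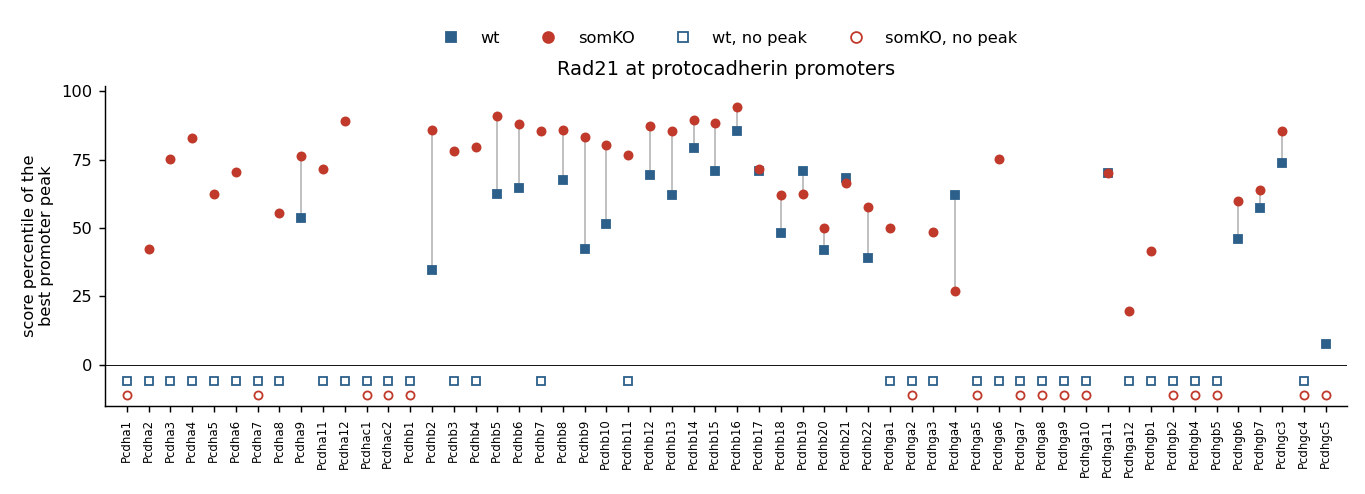
Score percentile within its list of the strongest Rad21 peak within 1 kb of a start (y axis) for each of 56 clustered protocadherin genes (x axis), in wt (squares) and somKO (circles). Open symbols below 0 mark genes with no peak, and lines join genes with a peak in both. At 17 genes only somKO has a peak, 8 of them in the alpha cluster.

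Of the 10 lost peaks with the highest score, 5 lay on chromosome 14. The first was in an intron of Gm21738 (chr14:19415717-19416429, percentile 86.2), in a window that was 83.3% repeat, and the next near Gm7682 (chr5:94458876-94459728, 85.6), 1.13 kb from a somKO peak. The peak in Gm34907 (chr14:103479406-103479960) had a percentile of 74.7. Promoter peaks were lost at Afap1l2, which encodes an actin-associated adaptor (chr19:57007881-57008842, 70.4), Dkk2, a secreted Wnt regulator (chr3:132083975-132084362, 63.4), and Hs6st3, a heparan sulfate sulfotransferase (chr14:119137581-119138217, 60.8). Intronic peaks were lost in Tmem121 (68.6), Gpr180 (65.1) and the transcription factor gene Runx3 (64.0), and an intergenic one near B930095G15Rik (59.3). The next lost promoter peaks were at Lrrc7 (chr3:158561998-158562315, 59.3) and Gm10719 (58.0). At Afap1l2, Dkk2 and Lrrc7 the CTCF peak was present in wt and absent in somKO, whereas at Tmem121, Gpr180 and Runx3 CTCF was listed in both. Hs6st3 had CTCF in neither. The lost promoters of Afap1l2, Hs6st3 and Lrrc7 were rich in G and C (71.7%, 75.3% and 66.0% of the 300 bases).

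Genes with many gained peaks were long. Over all coding genes 22.2% of somKO peaks in gene bodies were gained and 11.7% of wt peaks lost at equal length, so the counts below are to be read against the number of peaks in each gene. At equal length Sdk1, a cell adhesion gene on chromosome 5, had 13 Rad21 peaks in wt and 33 in somKO, 21 of them gained. Zfhx3, a transcription factor gene on chromosome 8, went from 24 to 32 with 17 gained. Mtus2 went from 7 to 22 with 14 gained, and Cacna1c, a calcium channel gene, from 27 to 35 with 14 gained. Nrg1, an ErbB ligand gene on chromosome 8, had 27 and 29 peaks with 13 gained. The growth factor receptor gene Fgfr2 had 16 gained and 15 lost peaks, in an annotated model of 2961 kb with 109 wt and 100 somKO peaks, a gained share below that over all coding genes. The remaining 4 of the 10 leading genes were Gm20388 (4435 kb on chromosome 8, 127 gained) and Gm42416, Gm37388 and Gm37013 (20, 17 and 17 gained), models that span neighbouring genes, the last 3 of them the protocadherin clusters. Genes with the most lost peaks, beside Gm20388 (20) and Fgfr2, were 2010111I01Rik (34 wt peaks, 16 lost), the receptor tyrosine kinase gene Alk (26, 14 lost), Myo10, a myosin of filopodia (27, 13 lost), Phldb2 (23, 12 lost), Dnm3, a dynamin (46, 12 lost), Palm2 (27, 11 lost), the DNA repair gene Rad51b (60, 11 lost) and Smg6, a factor of nonsense-mediated decay (38, 10 lost). Alk had no gained peak at equal length.

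Chromosomes differed in both shares. At equal length the gained share was 22.9% ± 3.44 (SD over 19 autosomes) and the lost share 12.4% ± 2.80. Among autosomes chromosome 8 had the highest gained share (33.7%) and the lowest lost share (6.33%), followed by chromosome 18 (27.7% and 8.52%). Chromosome 14 had the highest lost share of them (19.1%) and chromosome 15 the lowest gained share (18.7%). X had a gained share of 26.3% (24.5 to 28.2) and a lost share of 9.45% (8.20 to 10.9), between those of chromosome 18 and of the autosomal mean. The change in CTCF peak number went with that of Rad21. On the log2 scale, somKO over wt in the full lists, Rad21 changed by 0.71 on chromosome 8, 0.21 on chromosome 14 and 0.52 on X, and CTCF by 0.41, 0.09 and 0.34. Over the 19 autosomes Spearman's rho of the 2 log2 values was 0.732 (0.627 without chromosomes 8 and 14). The Rad21 and CTCF lists share clones. Chromosome copy number was not tested.

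**Figure D5:**
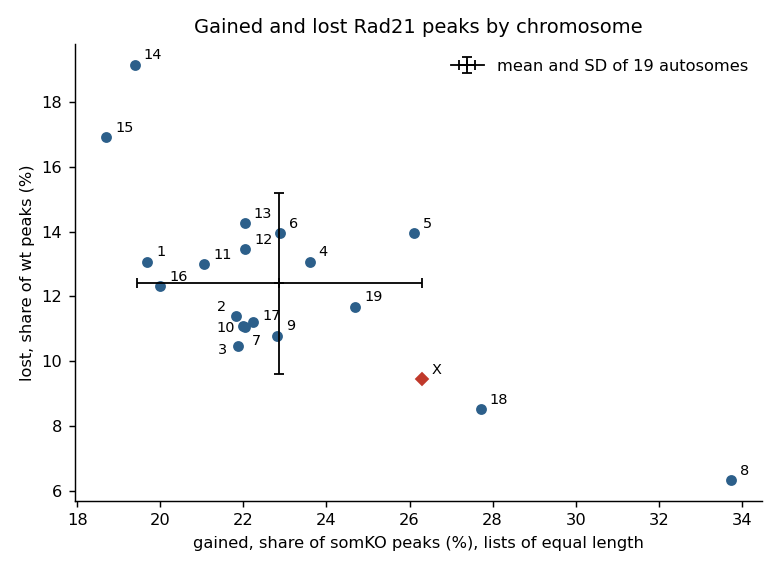
Share of somKO Rad21 peaks gained (x axis, percent) and share of wt Rad21 peaks lost (y axis, percent) with lists of equal length, for each autosome (circles) and X (diamond). The cross gives the mean and SD of 19 autosomes, and chromosome 8 lies at 33.7% gained and 6.33% lost.

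The windows of 1 Mb with the most gained peaks at equal length reflected this. Of the first 5, 4 were on chromosome 8 (chr8:121000001-122000000 with 38 gained, 111000001-112000000 with 37, 70000001-71000000 with 33 and 126000001-127000000 with 32), and the other was on chromosome 5 (139000001-140000000 with 34). Lost peaks were most frequent at chr14:76000001-77000000, which holds Tsc22d1 and where 29 of 62 wt peaks were lost, at chr5:111000001-112000000 (28 of 92) and chr5:118000001-119000000 (28 of 119), at chr2:148000001-149000000 (25 of 85) and at chr1:186000001-187000000, which holds Tgfb2 (23 of 50). Chromosome 14 was not uniform. With an edge at 70 Mb, set after the windows were seen, 8.35% (7.10 to 9.79) of wt peaks were lost before it and 29.8% (26.5 to 33.4) beyond it in the full lists, and the gained share was 35.6% and 10.7%. CTCF peaks were lost at 7.59% before and 23.4% beyond.

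On X, where SmcHD1 is concentrated in wt cells, the strongest gained peaks were near Gm5169 (chrX:25373519-25374192, percentile 83.2, in 87.0% repeat), near 4930555B12Rik (77.7), near Firre (chrX:50549560-50550803, 77.2), in Gm15107 (76.8) and near Btbd35f6 (76.7). The starts of Gm5169, 4930555B12Rik, Firre and Btbd35f6 were 72.4, 139, 84.9 and 110 kb from their peaks. Firre is a long noncoding RNA locus that contacts other loci of the inactive X. The strongest lost peaks on X were at the promoter of Dcaf12l1 (54.8), in Morc4 (47.6), at the promoter of Pir (44.5), near H2al1j (42.8) and in Esx1 (39.2). The start of H2al1j was 317 kb from its peak. Reads of the active and the inactive X were pooled for peak calling. Rad21 peaks that overlapped an SmcHD1 peak of wt cells were gained less often, in 361 of 2006 cases (16.4% to 19.7%) against 38.3% elsewhere, and lost less often, at 2.62% (up to 3.50) against 7.34%. On X the gained share at SmcHD1 peaks was 17.2% (12.96 to 22.5). In deciles 6 and 7 of scores 1.23% and 3.03% of gained peaks lay at an SmcHD1 peak, against 2.32% and 3.46% of retained ones. In the eighth decile the order was different, with 11.8% of gained and 3.92% of retained somKO peaks at an SmcHD1 peak (8.37 to 16.5 and 3.54 to 4.35). From the eighth decile up, 17 of 47 gained and 244 of 2041 retained peaks of chromosome 5 lay at an SmcHD1 peak, and on X 3 of 15 and 103 of 935. Several of these gained peaks of chromosome 5 lay close together in chr5:14947329-15600659, around Speer4e and Gm21847. Peaks that the SmcHD1 antibody gave in SmcHD1 mutant cells were not removed from the wt SmcHD1 list.

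Retained peaks were followed as 48075 pairs in which 1 wt peak overlapped 1 somKO peak. The median width rose from 608 to 969 bp, 83.2% of pairs were wider in somKO, and the median ratio of widths was 1.37. On chromosome 8 this ratio was 1.75, on chromosome 14 it was 1.203 and on X 1.53. Ranks were kept, with a Spearman's rho of 0.926 across pairs. The percentile was higher in somKO by a median of 7.51, in a list whose lower part is largely gained peaks. Part of any rise therefore follows from the lengths of the lists, and no percentile at equal length was computed. Among the pairs with the highest differences in these percentiles were those at the promoters of D230017M19Rik (1.56 to 75.4) and of Ddx54 and Rita1 (6.99 to 79.2), in an intron of Rnf150 (0.466 to 69.8) and near Chrnb3 (14.4 to 82.6). The lowest differences were found in an intron of Tvp23b (96.4 to 30.1), in 9330188P03Rik (59.3 to 5.44), near Gm7160 (53.8 to 5.44), at the X-linked Cnksr2 promoter (52.7 to 5.44) and near Gm48277 (52.7 to 5.44). At Cnksr2 a CTCF peak was present in wt only, and at Ddx54 and Rita1 in somKO only.

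Promoters of most genes that mark these cells were bound in both genotypes. For comparison, 10865 of all 21911 coding genes had a promoter peak in both lists. Of 25 fibroblast genes 21 had a Rad21 promoter peak in both lists none had one in 1 list only, and 4 (Col6a3, Postn, Thy1 and Lum) had none. Col1a1 had a percentile of 99.7 in wt and 99.3 in somKO, and Col3a1 63.6 and 87.5. Of 20 growth-response genes all 20 were bound in both, among them Fos (59.6 and 81.1) and Myc (93.5 and 94.7). The same held for 14 of 14 TGF-beta and YAP targets and for 16 of 17 genes of cohesin and its partners. Rad21 itself had 28.7 and 55.7, and Smchd1 46.1 and 61.6. Lists with a promoter bound in 1 genotype were the p53 targets (Perp in wt only, 8.72, and 13 of 14 genes in both), the interferon response (Ddx58 in somKO only, 36.4, and 10 of 15 in both) and the 39 Hox genes (Hoxc10 and Hoxc13 in somKO only, 57.1 and 18.3, and 23 in both). The somKO-only shares of the interferon (6.67%) and Hox (5.13%) lists lay near the 6.52% of all coding genes. At equal length Hoxc13 had no peak in somKO either, and peaks of Ifih1, Bst2, Esco2, Tgfbi and Kdm5c, listed in both genotypes in the full lists, were in wt only. Of 21 imprinted genes 12 were bound in both and 3 in somKO only, namely Igf2 (31.0), Kcnq1ot1 (50.9) and Zim1 (61.1). Of 12 genes that escape X inactivation 11 were bound in both, Xist among them (97.2 and 97.6). In the bodies of fibroblast genes 49.7% of 145 somKO peaks were gained in the full lists, against 36.8% over all coding genes. At equal length 26.97% were gained, against 22.2%, and 18.9% of 95 wt peaks were lost, against 11.7%. In the bodies of 8 escape genes 48.1% were gained in the full lists and 19.4% at equal length. For growth-response genes these shares were 33.3% and 11.4%. No intervals are given for these small sets.

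Markers of other cell types were mostly without Rad21 at their promoters. None of 9 epithelial genes had a peak in both lists and 1, Cldn4, had one in somKO only (4.33). Of 8 endothelial genes 2 had one in both and Cdh5 in somKO only (3.88). At Pecam1, counted in both, the 1 wt promoter peak was lost and the 2 somKO ones were gained, so none overlapped. Runx3 was the 1 of 8 blood genes with a peak in both, at 52.7 in wt and 17.1 in somKO, and Pax3 the 1 of 8 muscle genes (69.0 and 75.2). Of 8 neural genes 1 had a peak in both, and Tubb3 (12.7) and Snap25 (54.2) in somKO only. At equal length the somKO peaks of Cldn4, Cdh5 and Tubb3 were no longer in the list, and Runx3 had a peak in wt only. Rad21 at a promoter is not a measure of expression, so these lists do not establish which cells were present.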

How the data were processed

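Peak lists were deposited with a chromosome, start, end and score for each peak. The authors used Bowtie2 for alignment, to an mm10 genome masked at strain variants, and called narrow peaks with MACS2 (q below 0.05) on both alleles together, from merged replicates. Versions and the use of inputs are not given in the sources used here. Per the methods, Rad21 and SmcHD1 chromatin was fixed with EGS and formaldehyde, CTCF chromatin with formaldehyde alone. The deposited score was read as 10 × −log10 of the q-value, an inference, and ranked peaks only within a list. Of 8 lists, 6 were used.

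The members and gene lists were chosen with earlier results of these data known. Overlaps of at least 1 bp, classes and motifs were computed in Python 3.11.15 with numpy 2.4.6 and scipy 1.17.1. Genes were protein-coding and long noncoding genes of GENCODE M21 (GRCm38). Equal length kept the 67655 highest somKO scores. The lowest kept score was 57, with 758 of 1633 tied peaks left out by width. Promoter peaks lay within 1000 bp of a start. Other peaks were classed by their midpoint as exon, intron or intergenic. With 1 list a group, no test was made; shares carry 95% Wilson intervals. The overlap step was checked on simulated lists. Named items were the 10 gained and 10 lost peaks with the highest score, the 5 at promoters, the 10 coding genes (equal length) and the 5 windows of 1 Mb with most gained or lost peaks, the 5 pairs with the largest rise and fall in percentile, and list genes with a promoter peak in 1 list only. Of these, 1 item is not reported here. The 5 highest-scoring gained and lost X peaks were added. The listed names Mx2, Ctgf and Cyr61 were not found in the annotation.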

Additional observations from a re-analysis of the deposited data

How the results depend on the processing

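No paired analysis was possible because each list was made from merged libraries and no test was run, and for the same reason no replicate could be left out. Of 56 alternatives for 16 values, 46 moved the value beyond its interval and 10 did not. For shares this was the counting interval. For median widths it was the wider range between the quartiles of peak width, and most of the 10 that stayed were widths. The gained share was 23.1% at equal length, 55.9% with 50% reciprocal overlap, 32.3% with peaks within 500 bp counted as shared and 33.0% at scores of at least 50. In the same order the lost share was 12.4%, 41.4%, 5.17% and 4.32%. The gained share stayed above the lost share in all 4. Without chromosomes 8, 14, 15 and 18, an alternative chosen after seeing the data, the gained share was 37.1%. The promoter share of gained peaks was, in the same order, 9.06%, 13.2%, 7.96% and 12.7%, and 6.39% within 500 bp of a start and 7.32% for coding genes. For lost peaks it was 10.9% at equal length, 18.3% with reciprocal overlap, 12.2% at scores of at least 50, 6.06% within 500 bp and 7.19% for coding genes. The share of gained peaks at CTCF was 50.8%, 40.6%, 32.2% and 41.3%, and 19.6% with 50% overlap with the CTCF peak. For lost peaks it was 13.8%, 43.8%, 16.8%, 23.0% and 9.25%. The CTCF core was in 27.7%, 14.3%, 18.8% and 22.2% of gained peaks, and in 19.1% with the whole peak searched. In lost peaks it was in 8.63%, 14.7%, 13.7% and 15.6%. At equal length the gained and lost shares were 33.7% and 6.33% on chromosome 8, 19.4% and 19.1% on chromosome 14, and 26.3% and 9.45% on X. The median width of lost peaks was 428 bp with reciprocal overlap. Causes other than the construction of each alternative were not tested.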
